A study of Homo sapiens with 20 samples.

Results

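Long non-coding RNAs (lncRNAs) that lost at least 50% of their level when NGP cells were treated with nutlin-3 were described here. A lncRNA belonged to the set when its estimated counts, summed over transcripts and scaled to the total of the sample (CPM), averaged at least 1 CPM in the vehicle samples and at most 0.5 times that mean in the nutlin samples. Of 14876 lncRNA genes with a transcript in the data, 1943 reached 1 CPM in vehicle and 84 of these (4.32%) met the rule. In the other direction, 336 of the 1943 had a nutlin mean at least 2 times the vehicle mean. The members were chosen by the nutlin and vehicle means themselves, so the fall of the 84 lncRNAs is a description and carries no test.

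NGP is an established neuroblastoma cell line. The 20 samples were 10 cultures given nutlin-3 (8 µM racemic mixture) and 10 given ethanol, the vehicle in which the drug is dissolved, and the duration of the treatment is not given in the sources used here. All cultures were of the same line, so the replicates do not cover variation between tumours. Polyadenylated RNA was sequenced, and the estimated counts summed to 14455477 to 19532971 in the vehicle samples and to 15078052 to 17442896 in the nutlin samples. At the median depth, 1 count was worth 0.0608 CPM, and smaller values are fractions of a count. The defining markers of adrenergic neuroblastoma were present, with a summed level of 6819 to 7788 CPM in vehicle and 7622 to 9180 CPM in nutlin and 10 of 10 markers at 1 CPM or more in vehicle. The mesenchymal list summed to 138 to 161 CPM in vehicle and 114 to 143 CPM in nutlin, most of it from TWIST1 with a vehicle mean of 138 CPM. The epithelial list summed to 0.841 to 2.23 CPM in vehicle and 2.29 to 4.58 CPM in nutlin, and the leukocyte list to 1.59 to 2.72 CPM and 3.57 to 5.99 CPM, without overlap between the groups in either. The endothelial list summed to 0.954 to 1.94 CPM in vehicle and 1.02 to 2.35 CPM in nutlin. The part of these low levels in the results below was not tested. In bulk RNA, fewer cells expressing a gene and less RNA per cell cannot be told apart.

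Nutlin-3 binds MDM2, the ubiquitin ligase that keeps p53 low, and thereby lets p53 accumulate and act as a transcription factor. Active p53 raises targets such as CDKN1A, which inhibits cyclin-dependent kinases, and genes of DNA replication and mitosis fall indirectly, through the DREAM complex and the RB proteins that bind E2F and CHR elements in their promoters. Long non-coding RNAs are transcripts without a long open reading frame. Some are precursors of microRNAs, some start at the promoter of a coding gene and run away from it, some lie antisense over a coding gene, and for most no role is known. In these samples MDM2 ranged from 169 to 252 CPM in vehicle and from 4651 to 6043 CPM in nutlin, and CDKN1A ranged from 16.3 to 44.7 CPM in vehicle and from 1278 to 1795 CPM in nutlin. Neither gene overlapped between the groups.

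Of the 84 lncRNAs, 7 hold a mature microRNA on their own strand, beside 61 of all 1943 lncRNAs of that abundance, and the sequences of those with a shared or closely related seed are shown because the seed (bases 2 to 8, in capitals) selects the targets of a microRNA. The mature microRNAs themselves were not measured in this polyadenylated library. DLEU2 on chromosome 13 spans miR-15a and miR-16, which share a seed and are known to restrain cyclins and BCL2. MIR503HG on chromosome X spans miR-503, whose seed is closely related to theirs. ENSG00000207751 on chromosome 22 spans miR-130b and miR-301b, which share another seed.
hsa-miR-15a-5p: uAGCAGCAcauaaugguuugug
hsa-miR-16-5p: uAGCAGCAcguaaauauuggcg
hsa-miR-503-5p: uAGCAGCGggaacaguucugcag
hsa-miR-130b-3p: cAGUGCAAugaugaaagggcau
hsa-miR-301b-3p: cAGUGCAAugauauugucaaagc
The remaining hosts are SILC1 (miR-7158), MIR924HG (miR-924 and miR-5583), and MIR4435-2HG and CYTOR, which both carry miR-4435. The sequences are from RefSeq on GRCh38.

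As a group, the 84 lncRNAs summed to 842 ± 45.4 CPM in vehicle and 294 ± 11.03 CPM in nutlin (SD, n = 10 each). The vehicle samples ran from 771 over a median of 846 to 927 CPM and the nutlin samples from 281 over 291 to 310 CPM, so the groups were far apart. These lncRNAs took 3.51% of all lncRNA counts in vehicle and 0.747% in nutlin. Their median ratio of nutlin to vehicle means was 0.372, beside 1.31 for all 1943 lncRNAs of that abundance. The ratio was at most 0.25 in 16 lncRNAs and between 0.4 and 0.5 in 33. Most were of low abundance, with 50 under 5 CPM in vehicle and 16 at 10 CPM or more. In 64 of the 84 every nutlin sample lay below every vehicle sample, which was the case for 5.67% of the tested lncRNAs with a vehicle mean of 1 CPM or more. edgeR's quasi-likelihood test with Benjamini-Hochberg adjustment at 5% FDR tested 82 of the 84 and called all 82 lower (21.5% of the tested lncRNAs of that abundance were called lower and 47% higher). The other two had no count in any nutlin sample and were not tested. As the rule used this contrast, these counts describe the set and nothing more is read from them.

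**Figure D1:**
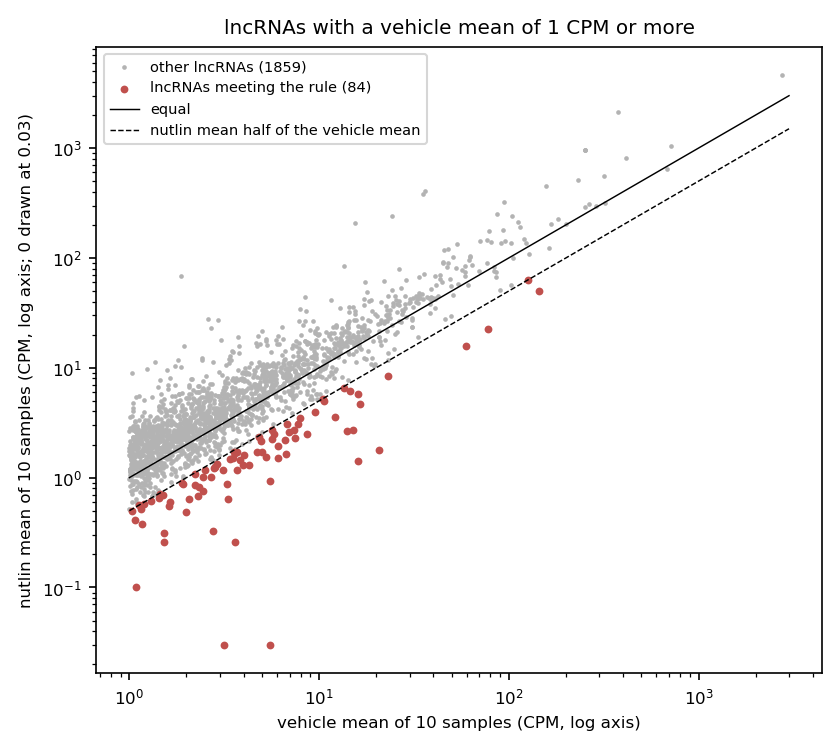
Mean of the 10 nutlin samples against the mean of the 10 vehicle samples (CPM, both axes logarithmic) for 1943 lncRNAs with a vehicle mean of 1 CPM or more. The 84 lncRNAs of the rule lie on or under the dashed line at 0.5 times the vehicle mean, 2 of them at a nutlin mean of 0, and most other lncRNAs lie around or above the line of equality.

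The limit of the rule cut through a continuous range. Just inside it were ENSG00000268836 with a ratio of 0.498, GTF2IP1 (ENSG00000290871) with 0.497 and DLEU2 with 0.497. Just outside were ENSG00000249122 with 0.503, ENSG00000232035 with 0.504 and FAM222A-AS1 with 0.510. For comparison, the coefficient of variation (SD over mean) of DLEU2 between vehicle samples was 0.192.

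Among lncRNAs of neural and neuroblastoma genes, 3 of the 22 that reached 1 CPM in vehicle met the rule, LINC00682 and CRNDE among them. Over the 33 tested, 7 were called lower and 18 higher with a median ratio of 1.66. Of all tested lncRNAs, 6.36% were called lower and 32% higher with a median of 1.64. Of those that reached 1 CPM in vehicle, 21.5% were called lower and 47% higher. LINC00682 had the most counts of the 84, and per length it stood at 162 TPM (a count scaled by transcript length and sample total) in vehicle and 48.9 TPM in nutlin. It lies on chromosome 4 (GRCh38 chr4:41872741-41882955, minus strand). LINC00682 ranged from 126 over a median of 143 to 159 CPM in vehicle and from 44.7 over 51.7 to 53.2 CPM in nutlin, a 2.85-fold lower mean. Its 10 nutlin samples were all below the lowest vehicle sample, and its spread was small in both groups. No sequence of its main transcript was shared with another gene, and the 3 transcripts of LINC00682 above 5 counts fell to ratios of 0.341, 0.329 and 0.526.

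Among transcription factors of the adrenergic program of neuroblastoma, CPM ratios were 1.001 for PHOX2A, 0.963 for HAND2, 0.998 for ISL1 and 1.49 for GATA3. On the TMM scale of the test log2 fold changes lay 0.182 below those in CPM at the median, and there PHOX2A, HAND2 and ISL1 were called lower (log2 fold changes of -0.18, -0.24 and -0.18) and GATA3 higher. CRNDE, a lncRNA of the IRX5 locus that is high in several tumours, ranged from 8.23 over 9.601 to 10.7 CPM in vehicle and from 2.86 over 3.67 to 5.52 CPM in nutlin. The 8 transcripts of CRNDE that passed 5 counts all had ratios below 1, from 0.199 to 0.603.

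Members with developmental neighbours were found in the set when it was looked through, and the ones that follow were chosen after their values were seen. ENSG00000259460 and ENSG00000274444 both lie at MEIS2, a homeobox gene of neural development whose mRNA had a ratio of 0.394. Their own ratios were 0.382 and 0.297. ENSG00000259460 lies opposite MEIS2 for 92.9% of its exon bases, so its reads cannot be told apart from those of MEIS2 with certainty. ENSG00000275038 starts back to back with TLX3, a homeobox gene of sensory and autonomic neurons, and ranged from 1.56 over 2.03 to 2.97 CPM in vehicle and from 0.229 over 0.617 to 0.915 CPM in nutlin, while TLX3 itself had a ratio of 0.333. SILC1, which lies 231 kb from the neural factor gene SOX11, ranged from 4.75 to 6.75 CPM in vehicle and from 1.82 to 3.07 CPM in nutlin, whereas SOX11 mRNA had a ratio of 0.819. LINC01116, 515 kb from the homeobox gene HOXD13, ranged from 13.2 to 16.9 CPM in vehicle and from 5.26 to 7.11 CPM in nutlin. In each of ENSG00000275038, SILC1 and LINC01116 the groups did not overlap.

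**Figure D2:**
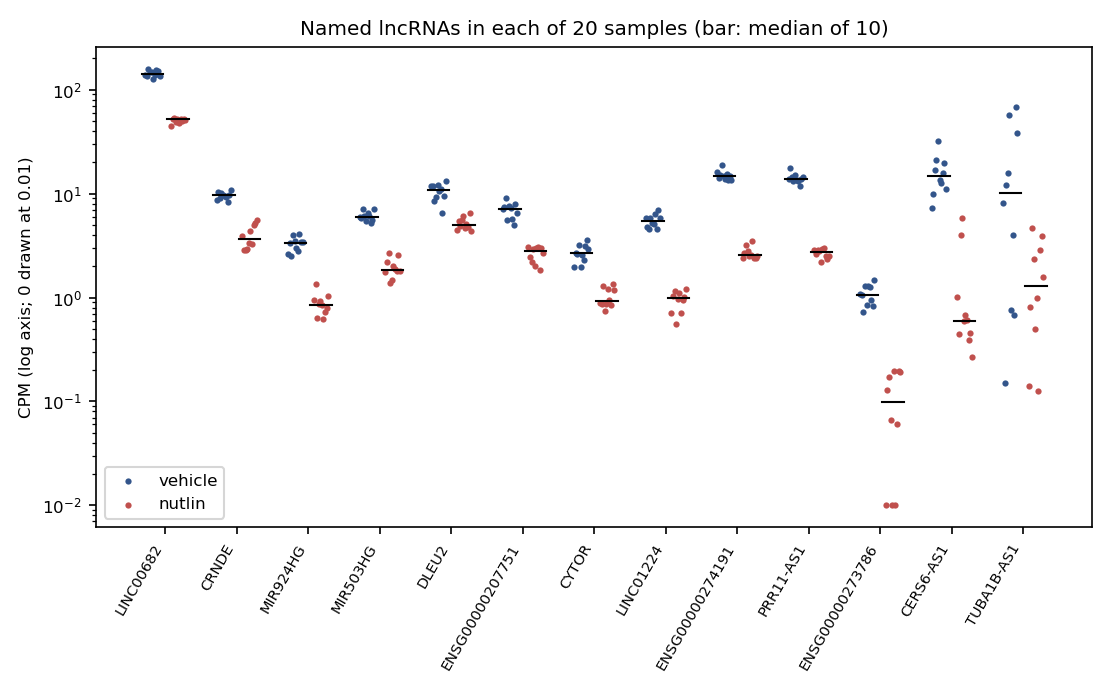
CPM on a logarithmic axis of 13 lncRNAs in each of the 10 vehicle (blue) and 10 nutlin (red) samples, with a bar at each group's median. The groups are apart for most, overlap slightly for DLEU2 (lowest vehicle sample 6.51 CPM, highest nutlin sample 6.53 CPM), and overlap widely for TUBA1B-AS1.

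Of 21 microRNA host lncRNAs on the list that reached 1 CPM in vehicle, 4 met the rule, namely DLEU2, MIR503HG, MIR4435-2HG and MIR924HG. Over all 34 tested hosts, 13 were called lower and 14 higher, and their median ratio was 1.22, beside 1.64 for all tested lncRNAs. Among all tested lncRNAs 6.36% were called lower and 32% higher. Among those at 1 CPM or more in vehicle the shares were 21.5% and 47%. MIR503HG ranged from 5.26 over a median of 6.00 to 7.17 CPM in vehicle and from 1.39 over 1.85 to 2.66 CPM in nutlin, a 3.11-fold lower mean, and 5 of its transcripts had ratios between 0.184 and 0.425. MIR924HG ranged from 2.53 over 3.36 to 4.09 CPM in vehicle and from 0.627 over 0.852 to 1.35 CPM in nutlin. ENSG00000207751, the host of miR-130b and miR-301b, which was chosen after its values were seen, ranged from 5.01 over 7.17 to 9.15 CPM in vehicle and from 1.83 over 2.83 to 3.10 CPM in nutlin. All nutlin samples lay below all vehicle samples in these 3 hosts.

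DLEU2 itself ranged from 6.51 over a median of 10.7 to 13.3 CPM in vehicle and from 4.40 over 5.01 to 6.53 CPM in nutlin. Its transcripts did not move alike. DLEU2-206, the transcript with most counts in vehicle, ranged from 0.000962 over 2.84 to 5.15 CPM in vehicle. In nutlin DLEU2-206 ranged from 0.211 over 0.485 to 0.898 CPM, a ratio of 0.176, with 0 nutlin samples below every vehicle sample. DLEU2-203 ranged from 1.07 over 1.70 to 2.09 CPM in vehicle and from 0.102 over 0.408 to 0.800 CPM in nutlin, with all 10 nutlin samples below the lowest vehicle sample. DLEU2-205 had a ratio of 0.312, with 9 nutlin samples below every vehicle sample, and DLEU2-202 had a ratio of 0.904, with 1 such sample. DLEU2-207, the longest of them, ranged from 1.4996 over 2.29 to 2.94 CPM in vehicle and from 1.68 over 2.69 to 3.30 CPM in nutlin, a ratio of 1.13, so that the ratio of 0.497 for the whole gene is an average of transcripts that fell and transcripts that did not. TRIM13, the coding gene that shares this locus on the opposite strand, had a ratio of 1.13 and was not called. The split of reads among overlapping transcripts is itself an estimate, and it was not tested.

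MIR4435-2HG and CYTOR are near-identical copies on chromosome 2, and 100% of the main transcript of each matches the other, so the reads of 1 cannot be assigned to it with certainty. CYTOR ranged from 1.95 over 2.66 to 3.57 CPM in vehicle and from 0.747 over 0.917 to 1.35 CPM in nutlin. MIR4435-2HG ranged from 3.76 over 4.59 to 7.09 CPM in vehicle and from 1.57 over 2.18 to 3.52 CPM in nutlin. Both had all nutlin samples below the lowest vehicle sample.

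Of 22 lncRNAs linked to the cell cycle that reached 1 CPM in vehicle, 3 met the rule, DLEU2, CYTOR and LINC01224. Over the 32 tested, 11 were called lower and 13 higher, with a median ratio of 1.20. For all tested lncRNAs the shares were 6.36% lower and 32% higher, with a median of 1.64. At 1 CPM or more in vehicle the shares were 21.5% lower and 47% higher. LINC01224 ranged from 4.599 over 5.50 to 6.99 CPM in vehicle and from 0.552 over 0.987 to 1.21 CPM in nutlin, a 5.86-fold lower mean. Its transcript LINC01224-206 fell to a ratio of 0.0561 and its transcript LINC01224-203 to 0.443. None of the 18 lncRNAs listed as p53-induced met the rule, and 12 of 13 tested were called higher with a median ratio of 8.50. None of the 31 snoRNA hosts did either, with 4 of 30 tested called lower and 21 higher at a median ratio of 1.61.

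The coding genes next to the set were taken as the most abundant mRNA within 10 kb of each lncRNA. Such a gene existed for 67 of the 84 lncRNAs and was called lower for 54 of them (80.6%), higher for 7 and not called for 6. For the other 1448 lncRNAs of that abundance with such a neighbour, 49.6% of the neighbours were called lower and 31.1% higher, and over all tested mRNAs 38.5% were called lower and 32.4% higher. The neighbour's own ratio was at most 0.5 for 27 of the 67 (40.3%), beside 4.70% among the other lncRNAs. Some lncRNAs have the same neighbour. The 67 were 63 different genes, of which 50 were called lower and 26 had a ratio of at most 0.5. Some neighbours, TUBA1B, TUBA1C and PRR11 among them, lie opposite most exon bases of their lncRNA, where reads cannot be told apart with certainty (below). The median ratio was 0.649 for neighbours of the set and 1.05 for neighbours of the other lncRNAs. These shares come from the contrast that chose the set, and they were not tested. The calls are on the TMM scale, so that some neighbours called lower had a CPM ratio near 1. In 57 of the 67 the lncRNA had the lower ratio of the pair. The rule limited the ratio of the lncRNA to 0.5 and set no limit for the neighbour. This count is therefore largely fixed by the rule, and nothing is read from it.

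**Figure D3:**
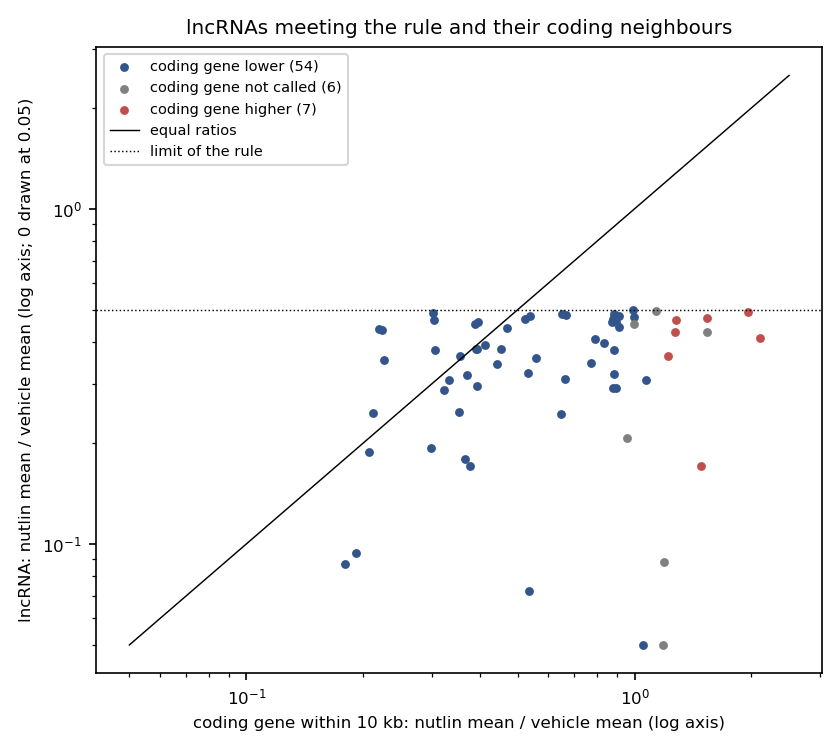
Ratio of nutlin to vehicle means of 67 lncRNAs (vertical) against that of the most abundant coding gene within 10 kb (horizontal), both axes logarithmic, coloured by the edgeR call of the coding gene. Most points lie under the line of equal ratios, where the rule puts each lncRNA whose coding gene has a ratio above 0.5. In 13 of the 67 pairs the coding gene stands at or above its vehicle mean.

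Of the 67 neighbours, 3 (4.48%) were on the list of cell-cycle mRNAs, namely BUB1B, MCM8 and GINS4, beside 18 of the 1448 neighbours of other lncRNAs (1.24%). On that list 146 of 148 mRNAs were called lower with a median ratio of 0.216, beside 1.13 for all tested mRNAs. All 30 listed p53 target mRNAs were called higher. ENSG00000274191, a single-exon RNA of 544 bases that lies 7.73 kb from the kinetochore gene KNTC1, ranged from 13.5 over a median of 14.9 to 18.9 CPM in vehicle and from 2.40 over 2.56 to 3.51 CPM in nutlin. Its mean was 5.57-fold lower and KNTC1 mRNA had a ratio of 0.366. ENSG00000273786, another single-exon RNA, lies 5.26 kb from the spindle checkpoint kinase gene BUB1B and ranged from 0.732 over 1.06 to 1.46 CPM in vehicle and from 0 over 0.0977 to 0.196 CPM in nutlin, where 3 samples were listed at 0. BUB1B mRNA had a ratio of 0.192. Neither lncRNA shared sequence with another gene. ENSG00000274191 lies past the end of KNTC1 on the same strand, and KNTC1 mRNA had a vehicle mean of 2223 CPM. Whether the reads of ENSG00000274191 belong to a separate RNA was not tested.

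Other lncRNAs of this kind, chosen after their values were seen, were ENSG00000280206 in NDE1 (a centrosome and dynein protein), ENSG00000269980 in CDK2AP1 (a protein that binds CDK2), ENSG00000274825 near FAM83D (a spindle protein) and ENSG00000275632 near MCM8 (a helicase of DNA repair). Their ratios were 0.248, 0.354, 0.467 and 0.320, beside 0.353 for NDE1, 0.226 for CDK2AP1, 0.305 for FAM83D and 0.370 for MCM8. ENSG00000280206 ranged from 4.99 over 6.03 to 7.48 CPM in vehicle and from 1.21 over 1.49 to 1.81 CPM in nutlin. These 4 had no overlap between the groups. ENSG00000280206 lies on the strand of NDE1, and ENSG00000269980 on the strand opposite CDK2AP1. ENSG00000274825 and ENSG00000275632 lie past the ends of FAM83D and MCM8 on the same strand. Whether the reads on the strand of a neighbour belong to a separate RNA was not tested.

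Starts shared with a coding gene on the other strand were found for 17 of the 84 (20.2%), beside 31.1% of the other lncRNAs. Of these 17 coding genes, 16 were called lower and 0 higher, beside 38.5% and 32.4% of all tested mRNAs, and 9 had a ratio of at most 0.5. Some of the 16 were near their vehicle mean in CPM, with ratios of 1.01 for ALKBH6 and 0.913 for ZFHX3. H1-10-AS1, which starts next to the linker histone gene H1-10, ranged from 14.01 over a median of 16.2 to 18.1 CPM in vehicle and from 4.93 over 5.62 to 7.41 CPM in nutlin, while H1-10 mRNA had a ratio of 0.558. SAP30-DT, which starts next to SAP30, a subunit of a histone deacetylase complex, ranged from 4.59 over 5.68 to 6.96 CPM in vehicle and from 1.77 over 2.68 to 3.34 CPM in nutlin, and SAP30 mRNA had a ratio of 0.537. In both lncRNAs the nutlin samples lay below all vehicle samples. Counting antisense coding genes as well, 31 of 42 partners were called lower and 5 higher, beside 38.5% and 32.4% of all tested mRNAs.

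The members that follow had, like most of those with a coding neighbour, a lower ratio than a coding gene nearby. CERS6-AS1 ranged from 7.35 over a median of 14.7 to 31.9 CPM in vehicle and from 0.267 over 0.597 to 5.78 CPM in nutlin, with the groups apart. CERS6, a ceramide synthase gene over which it lies on the opposite strand for 97.5% of its exon bases, had a ratio of 1.19 and was not called, and NOSTRIN, with which it shares a start, had a ratio of 0.257 and was called lower. LINC01224 lies 3626 bases from ZNF91, which was called higher, and CRNDE lies next to IRX5, which was called higher at vehicle and nutlin means of 0.175 and 0.368 CPM. ADAMTS9-AS1 ranged from 4.09 to 8.11 CPM in vehicle and from 1.03 to 2.21 CPM in nutlin, a ratio of 0.244, beside 0.647 for ADAMTS9, which was called lower. SLC16A4-AS1 ranged from 9.89 to 15.3 CPM in vehicle and from 2.72 to 4.31 CPM in nutlin, a ratio of 0.293, beside 0.879 for SLC16A4, which was called lower. ADAMTS9-AS1 and SLC16A4-AS1, both chosen after their values were seen, share no sequence with another gene.

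**Figure D4:**
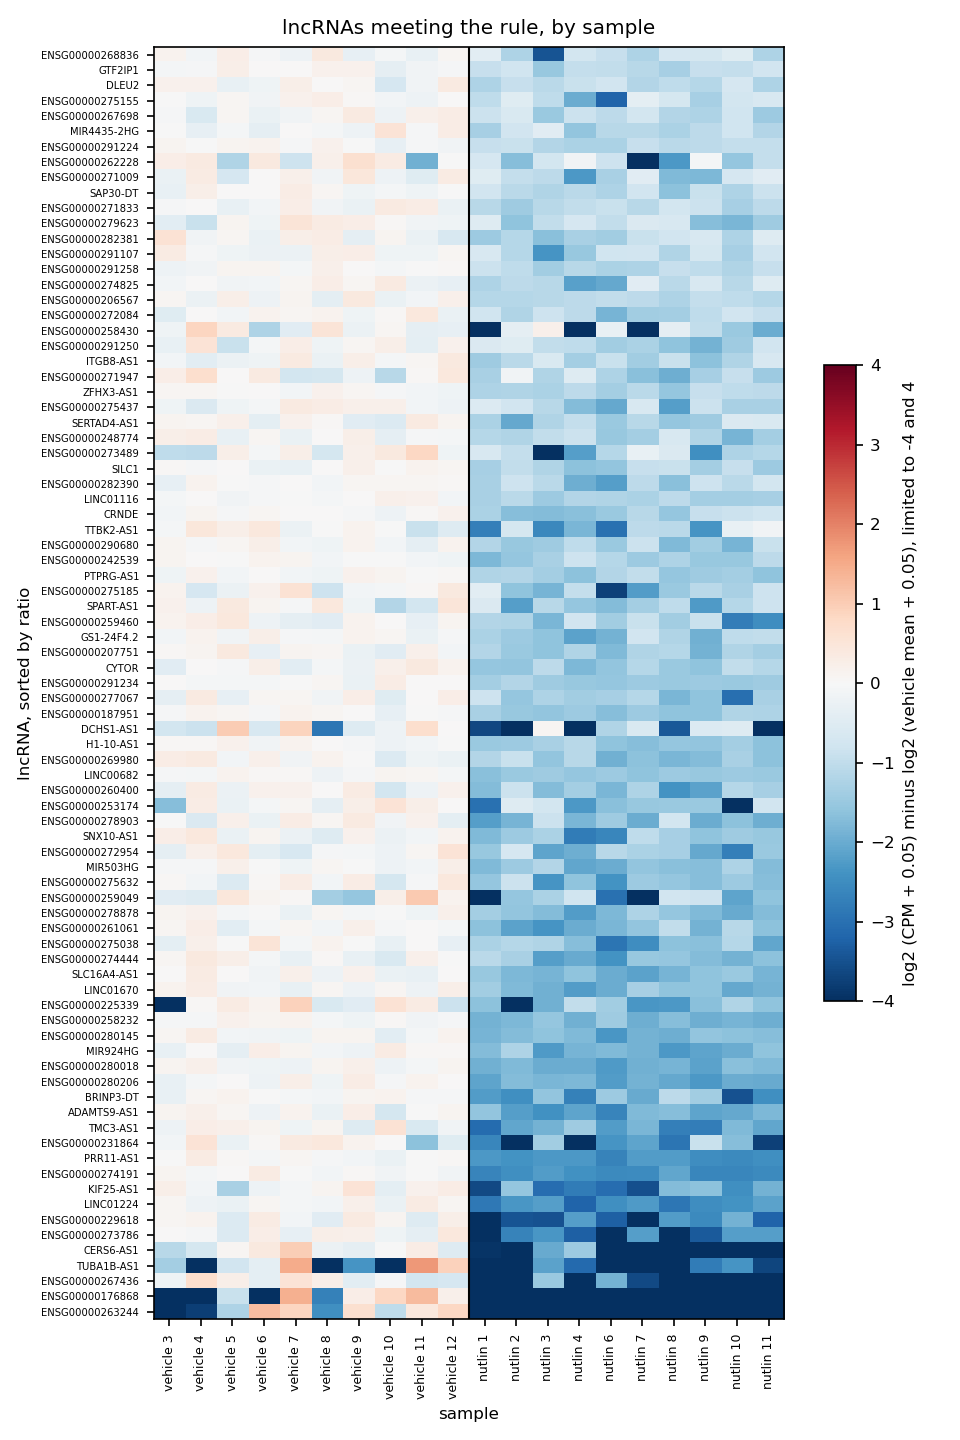
log2 of CPM plus 0.05 of 83 of the lncRNAs (rows, sorted by ratio) in each of the 20 samples, relative to the lncRNA's vehicle mean. Nearly all cells of the nutlin columns are blue, and a few rows near the bottom and middle, TUBA1B-AS1 and ENSG00000225339 among them, vary within the vehicle samples as much as between the groups.

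For part of the set the counts cannot be assigned with certainty. The kit keeps strand, but the sources do not state that strand was used in counting, so reads of an antisense lncRNA and of the gene it covers cannot be told apart. Over 50% of the exon bases were covered on the opposite strand in 17 of the 84 (20.2%), beside 8.98% of the other lncRNAs. In 12 of these 17 the covered gene was itself called lower, beside 38.5% of all tested mRNAs, and in 7 of the 17 the groups of the lncRNA were apart, beside 64 of all 84. The covered genes that were not called lower were CERS6, GALNT7, MFSD12, MKLN1 and DCHS1, with ratios of 1.12 to 1.27, and MKLN1 and DCHS1 were called higher. Among those called lower NUDT3 had a ratio of 0.909 and AKT1 of 0.875. ENSG00000258232 lies opposite TUBA1C for 97.9% of its exon bases and ranged from 68.4 over a median of 75.4 to 88.1 CPM in vehicle and from 19.8 over 21.2 to 28.7 CPM in nutlin. The tubulin gene TUBA1C had a ratio of 0.323, close to the 0.288 of the lncRNA. PRR11-AS1 lies wholly opposite PRR11 and ranged from 11.7 over 13.8 to 17.6 CPM in vehicle and from 2.18 over 2.74 to 2.97 CPM in nutlin, a ratio of 0.189, beside 0.207 for PRR11. ENSG00000231864 lies opposite SAPCD2, with ratios of 0.193 and 0.300, and ENSG00000253174 opposite the replication gene GINS4, with 0.343 and 0.442, and in both lncRNAs the groups overlapped. ENSG00000261061 lies on the strand of the centromere gene CENPN and matches it over 100% of its main transcript, with ratios of 0.308 and 0.362.

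TUBA1B-AS1 lies wholly opposite TUBA1B, and its vehicle samples ran from 0.150 over a median of 10.1 to 68.2 CPM, while its nutlin samples ran from 0.126 over 1.28 to 4.63 CPM. The groups overlapped, and TUBA1B mRNA stood at 4096 ± 221 CPM in vehicle and 735 ± 41.7 CPM in nutlin (SD, n = 10 each). ENSG00000263244 matches HAPSTR1 over 100% of its main transcript, was listed at 0 in all 10 nutlin samples and ranged from 0.00195 over 5.06 to 13.1 CPM in vehicle. ENSG00000176868 was also listed at 0 in all 10 nutlin samples and ranged from 0.00151 over 2.63 to 8.42 CPM in vehicle. In both, the lowest vehicle sample held less than 1 count, so their separation rests on values below 1 count. ENSG00000267436, opposite MFSD12, was listed at 0 in 5 nutlin samples and reached 1.25 CPM in another, and its vehicle samples ran from 2.14 over 3.35 to 5.76 CPM. The coefficient of variation between vehicle samples was above 0.5 in 6 of the 84, and its median was 0.188, beside 0.178 for the other lncRNAs.

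Sequence shared with another gene was a further limit. Matches on either strand were counted, so they include lncRNAs that lie opposite a coding gene as well as copies elsewhere. TUBA1B-AS1 and CERS6-AS1, for example, matched TUBA1B and CERS6, which they lie opposite, over 95.8% and 97.6%. The counts that follow therefore overlap with those of the antisense lncRNAs above. In 53 of the 84 a stretch of the main transcript matched a transcript of another gene, and in 21 at least 90% of it did. The 31 without such a match had a median ratio of 0.354 and 24 of them were apart between the groups, and the 53 with a match had a median of 0.377 and 40 apart. GTF2IP1 (ENSG00000290871), a copy of part of the transcription factor gene GTF2I, matched GTF2IP4 over 100% and ranged from 97.7 over 124 to 147 CPM in vehicle and from 43.9 over 65.1 to 74.0 CPM in nutlin. Functional GTF2I had a ratio of 0.837. ENSG00000187951 on chromosome 15 is overlapped on its own strand over 99.1% of its exon bases by annotated exons of other genes. The largest part is with the coding gene ENSG00000284906 (8.22 CPM in vehicle and 2.92 CPM in nutlin, called lower). Against the transcripts counted in these data, 6.71% of its main transcript matched another gene, mostly OTUD7A. How far reads of ENSG00000187951 and ENSG00000284906 mix was not tested. ENSG00000187951 ranged from 18.3 over 23.0 to 25.5 CPM in vehicle and from 7.11 over 8.24 to 10.1 CPM in nutlin. The groups were apart for GTF2IP1 and for ENSG00000187951.

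Of the 84 lncRNAs, 6 lie on the short arm of chromosome 21 between positions 5499151 and 7087229, a region of repeated segments. They are ENSG00000280018, ENSG00000280145, LINC01670, ENSG00000278878, ENSG00000278903 and ENSG00000277067, and between 42.1% and 100% of each main transcript matched another gene, so their values are best read together. Summed, they ranged from 89.7 over a median of 104 to 118 CPM in vehicle and from 24.0 over 30.4 to 31.0 CPM in nutlin. The ratio of the summed means was 0.282, and the single ratios lay between 0.264 and 0.363. ENSG00000280018 alone ranged from 51.7 over 59.96 to 68.5 CPM in vehicle and from 12.3 over 15.8 to 18.5 CPM in nutlin, and ENSG00000280145 ranged from 12.2 over 16.4 to 20.5 CPM in vehicle and from 3.21 over 4.84 to 5.47 CPM in nutlin. No tested coding gene lay within 10 kb of them.

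Among the 10 lowest ratios, ENSG00000229618 and KIF25-AS1 have not yet been described. ENSG00000229618 on chromosome 7 ranged from 1.88 over a median of 2.93 to 3.51 CPM in vehicle and from 0.0510 over 0.2495 to 0.708 CPM in nutlin, a ratio of 0.120. KIF25-AS1 ranged from 0.586 over 1.55 to 2.25 CPM in vehicle and from 0.0777 over 0.208 to 0.485 CPM in nutlin, a ratio of 0.171. Both were apart between the groups. KIF25, the kinesin gene with which KIF25-AS1 shares a start, was barely detected at vehicle and nutlin means of 0.247 and 0.0929 CPM.

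The promoter windows of the set, 250 bases before to 50 after the start of the main transcript, were searched on both strands. The CHR element TTTGAA was in 15 windows (17.9%), beside 15.4% of the windows of all 1943 lncRNAs. The CCAAT box was in 26 (31.0%), beside 33.2%, and both occurred together in 6 (7.14%), beside 5.92%. An E2F element (TTTCCCGC, TTTGGCGC, TTTCGCGC or TTTGCCGC) was in 5 (5.95%), beside 2.73%. The E-box CACGTG was in 0 of the 84 windows, beside 7.41%, the TATA box TATAAA in 15 (17.9%), beside 12.2%, and the p53 half-site in 4 (4.76%), beside 6.28%. The CHR and CCAAT shares were near those of all lncRNAs. These are matches of letters, and none was tested. The windows of LINC00682, the most counted member, and of 2 microRNA hosts from above, chosen after their values were seen, are shown, with CHR, CCAAT and TATA matches in capitals.
LINC00682 (GRCh38 chr4:41882522-41882821, minus strand): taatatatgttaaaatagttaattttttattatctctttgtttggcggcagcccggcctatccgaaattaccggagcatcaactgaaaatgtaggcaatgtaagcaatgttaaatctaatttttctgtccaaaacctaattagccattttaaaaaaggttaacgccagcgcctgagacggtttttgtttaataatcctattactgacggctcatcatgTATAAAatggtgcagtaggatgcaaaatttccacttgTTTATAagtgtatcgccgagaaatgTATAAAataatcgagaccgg
ENSG00000207751 (GRCh38 chr22:21652020-21652319, plus strand): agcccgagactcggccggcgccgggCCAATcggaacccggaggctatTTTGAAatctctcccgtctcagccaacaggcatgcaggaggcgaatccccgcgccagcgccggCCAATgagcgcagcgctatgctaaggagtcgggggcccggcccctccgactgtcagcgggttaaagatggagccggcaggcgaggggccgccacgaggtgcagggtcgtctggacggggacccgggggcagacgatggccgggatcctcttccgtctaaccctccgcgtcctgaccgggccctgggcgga
DLEU2 (GRCh38 chr13:50082007-50082306, minus strand): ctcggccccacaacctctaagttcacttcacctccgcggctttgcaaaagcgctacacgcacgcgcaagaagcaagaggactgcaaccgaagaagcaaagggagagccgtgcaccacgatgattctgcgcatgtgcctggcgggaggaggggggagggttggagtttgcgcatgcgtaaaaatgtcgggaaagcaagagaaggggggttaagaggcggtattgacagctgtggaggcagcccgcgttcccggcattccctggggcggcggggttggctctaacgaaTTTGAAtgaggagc
The window of LINC00682 holds TATA matches and no CHR or CCAAT match, and that of ENSG00000207751 holds a CHR match together with CCAAT matches.

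Beside the remaining lncRNAs of that abundance, the main transcript had a single exon in 31.0% of the 84 and in 28.6% of the others, and exons overlapped another gene in 57.1% and 56.6%. The median main transcript was shorter, at 898 bases beside 1855, 61.9% had no symbol, beside 45.5%, and 2.38% were named as divergent transcripts, beside 9.14%. The 84 lncRNAs lie on 23 chromosomes, with 9 on chromosome 16 and 7 on chromosome 15. These are descriptions of the lists and were not tested.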

How the data were processed

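NGP neuroblastoma cells treated with nutlin-3 or vehicle gave 10 samples each. Per the paper's methods these are biological replicates, and the labels do not say more about the cultures. The authors sequenced stranded, polyadenylated libraries as pairs of 75 nt and deposited estimated counts and TPM per transcript from kallisto 0.42.4 (submitters' processing notes and methods), with an index of GRCh38 and Ensembl release 85. Strand-aware counting is not stated. Of 198968 transcripts, 191106 matched GENCODE release 44 (95.7% to 96.8% of the counts per sample). Estimated counts were summed per gene, divided by the total of all transcripts for CPM, and rounded for edgeR 4.0.16 (TMM, condition as the only term, features counted at least once in both groups, 5% FDR). TMM log2 fold changes lay 0.182 below those of the CPM ratios. limma 3.58.1 and DESeq2 1.42.0 were alternatives. The test was checked on simulated data. Shared sequence (BLAST 2.17.0) is the share of the main transcript within alignments of at least 98% identity and 75 bases to another gene, on either strand. The labels do not say whether a shared replicate number pairs samples, and the main test treated all samples as unpaired.

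The lncRNAs and gene lists were chosen with earlier results of these data known. Named were the 10 lncRNAs with most counts, the 10 lowest ratios, those on a list, those starting next to a cell-cycle gene (none did), the 3 on each side of the limit, and others stated as chosen after their values were seen. Depth limits low values, and counting error was not separated from replicate spread. Of the 84 lncRNAs, 1 is counted but not reported here by name.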

Additional observations from a re-analysis of the deposited data

Results flagged for a closer look

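In 4 of 96 groups of 10 samples examined, the lowest or highest sample stood far from the rest, and chance alone would do this in about 1 in 20 groups. ENSG00000187951 had 18.3 CPM in vehicle replicate 10, below the next value of 22.4 CPM. ENSG00000274191 had 18.9 CPM in vehicle replicate 6, above the next value of 16.2 CPM. ENSG00000268836 had 0.0579 CPM in nutlin replicate 3, below the next value of 0.452 CPM. ENSG00000275632 had 1.99 CPM in nutlin replicate 2, above the next value of 1.32 CPM.

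Transcripts without a match in the annotation, which no comparison used, took 4.21% of the counts in nutlin on average and 3.28% in vehicle.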

How the results depend on the processing

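The number of lncRNAs meeting the rule was 84, and it was 185 with TPM in place of CPM (78 shared), 51 with a limit of 0.4, 138 with a limit of 0.6, 36 without exon overlap with another gene and, in an alternative chosen after seeing the data, 34 with under 10% shared sequence. It was 123 with TMM library sizes and 112 with DESeq2 size factors, which both kept all 84, and leaving out 1 sample gave 81 to 89. DLEU2, GTF2IP1 and ENSG00000268836 each left the set when certain samples were left out. So did MIR4435-2HG, ENSG00000258430, ENSG00000262228, ENSG00000267698, ENSG00000271009, ENSG00000275155 and ENSG00000291107. The summed vehicle mean was 976 CPM with TMM, beside 842. The number of these lncRNAs called lower stayed at 82 when each sample was left out and lay between 80 and 82 under the other alternatives. With the replicate block (16 samples) 82 were called lower, beside 81 in the same samples without it, chosen after seeing the data. The correlation of same-numbered samples averaged 0.00256 (-0.0445 to 0.0797), and 0 vehicle and 1 nutlin samples correlated best with their own number. Of 225 values of 45 named lncRNAs under alternatives, 225 were below 0 and 223 kept their side of the threshold. The exceptions, in limma voom, were TUBA1B-AS1 (log2 fold change -2.64) and ENSG00000225339 (-1.54), and the cause was not tested.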
